A study of Mus musculus with 3 samples.

Results

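The collagen genes are the rows of the deposited expression table that are annotated as protein-coding and have a symbol made of Col, a type number, the letter a and a chain number, such as Col1a1. The rule found 44 genes among the 39179 genes of the table, of which 22740 are protein-coding. They fell into 8 fibrillar genes, 7 cartilage genes, 9 basement membrane genes, 8 genes of the beaded filament and short-chain network collagens, 6 genes of the FACIT group (collagens that attach to the surface of fibrils), 4 transmembrane genes and 2 others. The study asked which genes mark mouse embryonic stem cell (ESC) derived cells resembling the cardiac Purkinje fibres, the fast-conducting cells of the heart. All cells came from 1 ESC line, Contactin2:eGFP, into which an aMHC:mCherry reporter had been placed with a lentivirus, and all received sodium nitroprusside from day 4 of differentiation, so no untreated cells are among the groups. At day 25 the culture was sorted by fluorescence into 3 populations: cells without either reporter (NEG), cells positive for aMHC:mCherry (MHC), and cells positive for Cntn2:eGFP with dim mCherry (GFP). Contactin 2 (Cntn2) marks the conduction system, and the aMHC reporter carries the promoter of Myh6, a heart muscle myosin. Each population was sequenced as 1 library, so there is no replicate check on any difference below, no test was possible, and the numbers compare these libraries only.

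Collagens are proteins of the extracellular matrix whose alpha chains wind around each other into a rigid helix. The fibrillar types form the cables of bone, skin and tendon, cartilage uses its own set built around type II, and basement membranes are sheets of type IV. In the heart, collagens are made mainly by fibroblasts and other non-muscle cells, and the cells of the conduction system lie in a sheath of connective tissue. Making a collagen needs hydroxylases and chaperones in the endoplasmic reticulum (ER), proteases that trim the secreted chains, and oxidases that cross-link them.

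The authors deposited read counts divided by 1 size factor per library, and these normalised counts are called values here. Coordinates are those of the mm10 build. The whole reads behind them could be recovered, and they summed to between 47289405 and 52826956 per library. A gene was counted as higher or lower at a difference of 2-fold on log2(value + 1), provided its higher value was at least 20, which held for all 44 collagen genes in each pair. Such a rule sorts genes by size of difference and tests nothing. Folds are ratios of values, and the range in parentheses after a fold or ratio is its exact 95% interval on the reads, which covers counting error only. The sorted libraries carried their reporter genes: Cntn2 had values of 204 in NEG, 228 in MHC and 10045 in GFP, and Myh6 had 3843 in NEG, 186924 in MHC and 4694 in GFP, so that Myh6 in GFP was 1.22-fold (1.17 to 1.28) its NEG value. Beside these, 10 of 10 epicardial and mesothelial markers were higher in GFP than in MHC and than in NEG, with summed values of 6993 in NEG, 6731 in MHC and 178866 in GFP, while 12 of 12 osteoblast and osteocyte markers were lower in GFP in both comparisons, with sums of 709604, 354988 and 3609. Over all genes with a value of 20 or more, 15.6% were higher and 16.4% lower in GFP than in MHC. Chondrocyte markers summed to 363409 in NEG, 168465 in MHC and 8688 in GFP, and cardiomyocyte markers to 10031, 311178 and 15484. The fibroblast markers had sums of 115659 in NEG, 149325 in MHC and 114727 in GFP, but split both ways: against MHC, 4 of 10 were higher in GFP, 4 lower and 2 within 2-fold. Among the fibroblast markers that were lower were Postn, at 36829 in NEG, 42621 in MHC and 1238 in GFP, and Fap, 127-fold (79.9 to 214) below MHC, while Thy1 was 7.22-fold (6.97 to 7.49) and Pdgfra 3.19-fold (3.13 to 3.26) higher. Of 5 epithelial markers with a value of 20 or more, GFP exceeded MHC by 2-fold in 4, and the 7 listed summed to 744 in NEG, 673 in MHC and 7834 in GFP. The keratins Krt18 and Krt8 were 13.6-fold (11.5 to 16.2) and 12.0-fold (10.7 to 13.4) higher. Cdh1, also higher, was low at 7.91 in NEG, 19.2 in MHC and 64.0 in GFP. Epcam stayed within 2-fold, at 14.7 in NEG, 15.2 in MHC and 25.6 in GFP. Of 8 haematopoietic markers, 7 had a value of 20 or more, and 6 of these were higher in GFP than in MHC. The 8 summed to 1861 in NEG, 2215 in MHC and 10189 in GFP. Smooth muscle markers were lower in GFP than in MHC for 5 of 7 and summed to 70314 in NEG, 75063 in MHC and 56749 in GFP. Of 9 endothelial markers, 6 had a value of 20 or more, with 3 lower and 2 higher. The 9 summed to 2576 in NEG, 3132 in MHC and 824 in GFP. Purkinje and conduction markers split into 4 higher and 5 lower in GFP than in MHC, with sums of 3163 in NEG, 3975 in MHC and 23412 in GFP. That list and its GFP sum include Cntn2 at 10045, and the cardiomyocyte sum in MHC includes Myh6 at 186924. The sort selected cells by the reporters of these 2 genes, so their part of the sums is not independent of it. Of these 10 lists, the conduction marker Gja5 was at 0 in NEG and no other marker was at 0 in any library. The part of other cell types in the collagen values was not tested, and fewer cells of a type cannot be told apart from less RNA per cell.

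Most collagen genes were lowest in the GFP library. By order of values, 34 of the 44 genes were lowest in GFP, 6 in MHC and 4 in NEG, while 28 were highest in NEG, 9 in GFP and 7 in MHC. Against MHC, 32 collagen genes were lower in GFP (all genes with 20 or more: 16.4%), 7 were higher (all genes: 15.6%) and 5 lay within 2-fold. The median log2 ratio of the 44 genes was -1.94, beside 0.01 for all genes. Against NEG, 30 were lower in GFP (all genes: 15%), 6 were higher (all genes: 14.1%) and 8 lay within 2-fold, with a median of -2.38 beside 0.02 for all genes. MHC and NEG were closer to each other: 17 genes were lower in MHC (all genes: 5.21%), 1 was higher (all genes: 5.35%) and 26 lay within 2-fold, with a median of -0.37 beside -0.02 for all genes. The 3 comparisons share libraries, so they are not independent of each other.

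**Figure D1:**
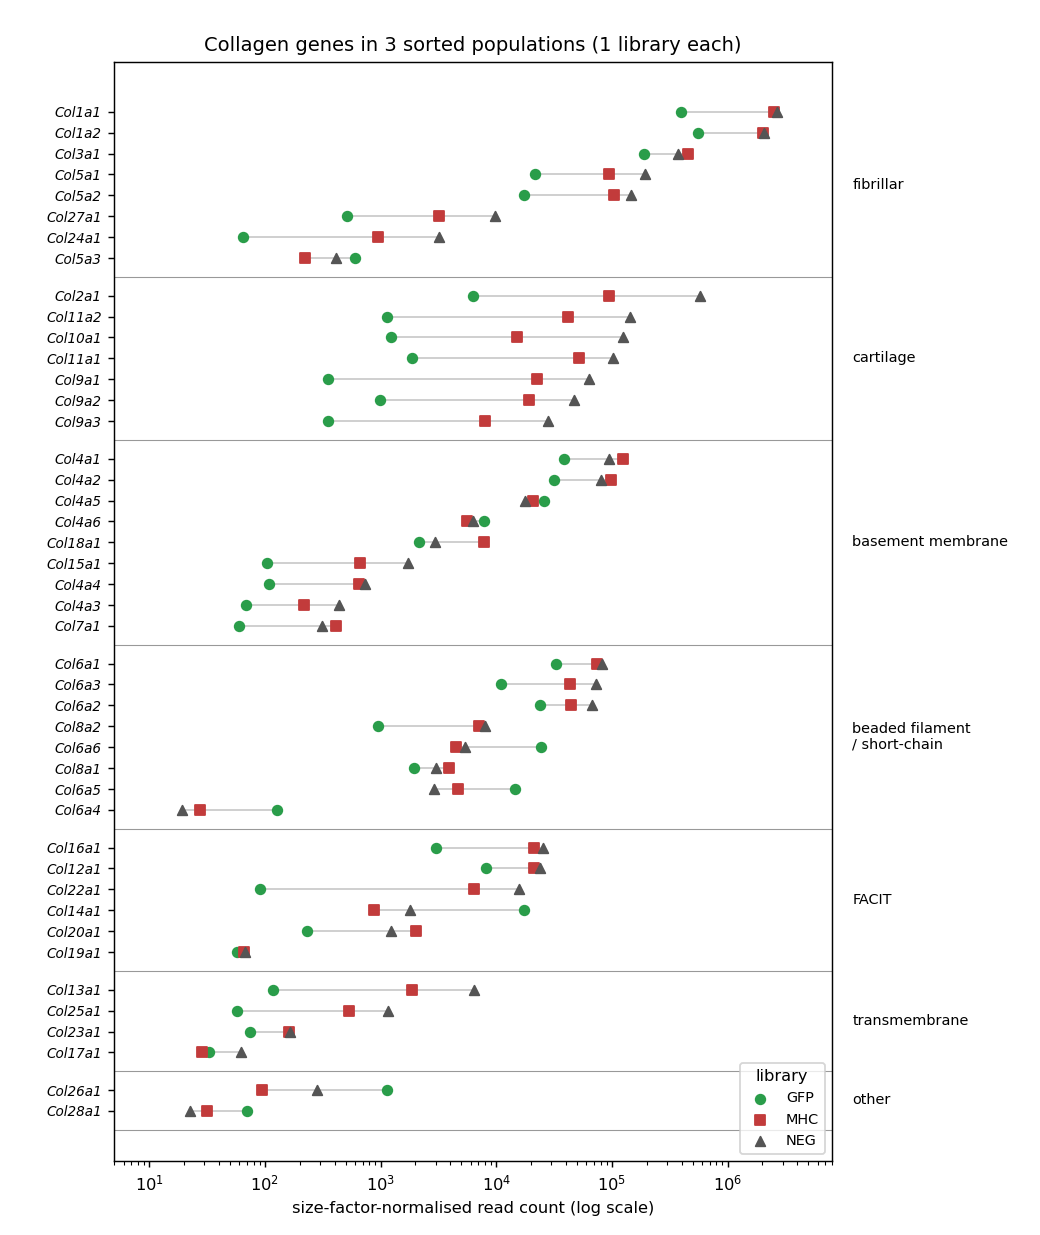
Size-factor-normalised read count (log axis) of each of the 44 collagen genes in the GFP, MHC and NEG libraries, grouped by class, 1 library per population and therefore no error bars. The green GFP circle is the leftmost symbol for 34 genes and the rightmost for 9.

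Summed over the 44 genes, collagen took 13.2% of the reads in NEG, 11.2% in MHC and 3.02% in GFP. The total here is the sum of reads over all genes. On the counting inferred below, a read that overlaps several genes enters that sum more than once. The shares are therefore of counted reads, and their intervals treat each count as a separate read. Most of these reads belonged to the fibrillar genes, with 77.3% of the collagen reads in NEG, 87.5% in MHC and 82.1% in GFP. Cartilage genes took 15.3% of the collagen reads in NEG, 4.22% in MHC and 0.848% in GFP, the widest range of any class in percentage points. Their summed value was 88.5-fold higher in NEG than in GFP, 20.6-fold higher in MHC than in GFP and 4.29-fold higher in NEG than in MHC. For the basement membrane genes the summed value in MHC was 2.45-fold that in GFP, and for the beaded filament and short-chain genes 1.66-fold. These last classes therefore took larger parts of the smaller collagen total in GFP: basement membrane genes held 7.36% of it against 4.36% in MHC and 2.91% in NEG, and beaded filament and short-chain genes 7.61% against 3.05% and 3.42%. With the type I genes Col1a1 and Col1a2 taken out of both the members and the total, the other 42 genes held 4.79% of the reads in NEG, 2.87% in MHC and 1.05% in GFP.

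**Figure D2:**
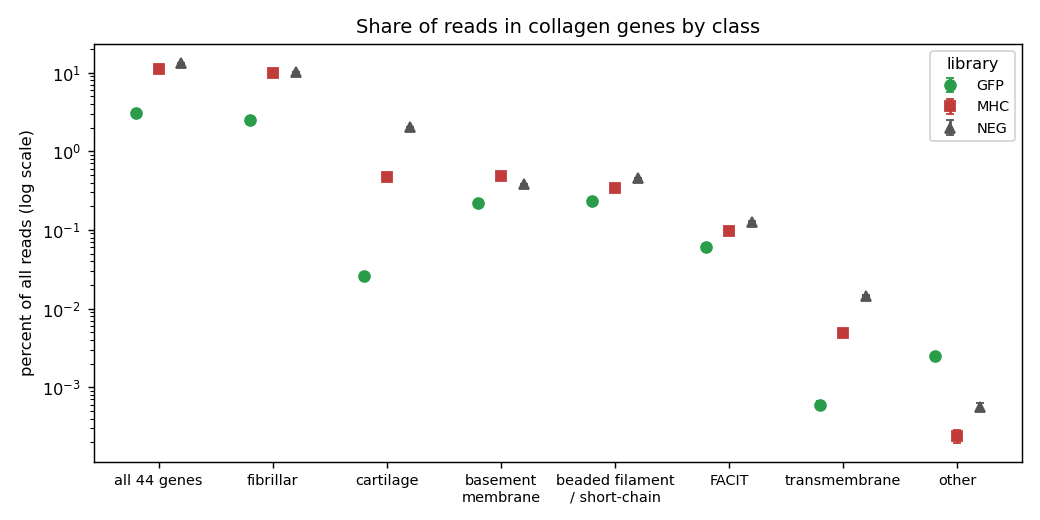
Percent of the reads summed over all genes in each library (log axis), for the 44 collagen genes and for each class. The exact 95% counting intervals are mostly smaller than the symbols. GFP lies below MHC and NEG in all classes but the 2 genes under other, and the gap is widest for the cartilage genes, at 2.03% in NEG, 0.471% in MHC and 0.0257% in GFP.

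The cartilage genes stood furthest apart. All 7 were lower in GFP than in MHC (all genes: 16.4%) and than in NEG (all genes: 15%), with median log2 ratios of -4.49 and -6.51. Between MHC and NEG, 6 of the 7 were lower in MHC (all genes: 5.21%), with a median of -1.78. Col2a1 (chr15:97975602-98004695, minus strand), which encodes the main fibril of cartilage, had values of 574523 in NEG, 94203 in MHC and 6314 in GFP. It was thus 91.0-fold (88.9 to 93.2) lower in GFP than in NEG and 6.10-fold (6.06 to 6.14) lower in MHC than in NEG. Col10a1 (chr10:34389981-34397085, plus strand) encodes the short-chain collagen of hypertrophic chondrocytes, the swollen cartilage cells found where bone forms. Its values were 123637 in NEG, 15087 in MHC and 1224 in GFP, 101-fold (95.7 to 107) lower in GFP than in NEG, and its 8.19-fold (8.06 to 8.34) difference between MHC and NEG was the largest of the 44 genes in that comparison. Col10a1 lies wholly inside the span of Nt5dc1 on the opposite strand, and makes up 5.45% of that span, so it is uncertain. The counting step was not stated by the labels. From the counts of genes nested in others it was inferred that a read goes to every gene whose span it overlaps, on either strand. On that inference the reads of Nt5dc1 include those of Col10a1, which had 109448 in NEG, 14895 in MHC and 1339 in GFP. Nt5dc1 had 928 reads more than Col10a1 in NEG, 886 in MHC and 1733 in GFP. On the same inference these further reads lie outside Col10a1, in the rest of the Nt5dc1 span. How many reads within Col10a1 came from Nt5dc1 was not tested.

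The minor cartilage collagens had the same order of libraries. Col11a1, a chain of the thin type XI fibrils on which type II is laid, had values of 102681 in NEG, 51558 in MHC and 1859 in GFP. It was 27.7-fold (26.5 to 29.0) below MHC in GFP, and the MHC and NEG libraries differed by 1.99-fold (1.97 to 2.01), just under the 2-fold rule. Its partner chain Col11a2 had 142417 in NEG, 41417 in MHC and 1132 in GFP and was 126-fold (119 to 133) lower in GFP than in NEG. Type IX collagen coats the cartilage fibrils and is assembled from 3 different chains. Col9a1 (chr1:24177610-24252684, plus strand) had values of 63058 in NEG, 22717 in MHC and 352 in GFP, and it was 64.6-fold (58.4 to 71.6) below its MHC value in GFP and 179-fold (162 to 199) lower in GFP than in NEG. Col9a2 had 47413 in NEG, 19099 in MHC and 984 in GFP, and Col9a3 had 28077 in NEG, 7981 in MHC and 354 in GFP. Both were therefore lower in GFP by 1 order of magnitude or more against either library, 19.4-fold (18.3 to 20.7) for Col9a2 and 22.6-fold (20.4 to 25.0) for Col9a3 against MHC. Among markers of cartilage cells that are not collagens, the proteoglycan gene Acan had values of 71155 in NEG, 12063 in MHC and 415 in GFP, and the matrix gene Comp had 164350 in NEG, 114515 in MHC and 2724 in GFP. Chondrocyte markers were lower in GFP than in NEG for 11 of 12 genes (all genes: 15%). Against MHC, 8 of 12 were lower in GFP (all genes: 16.4%) and 4 lay within 2-fold. In MHC, 8 of 12 were lower than in NEG (all genes: 5.21%), while Comp lay within 2-fold. Sox6 was instead highest in GFP, at 2597 in NEG, 2194 in MHC and 3723 in GFP, within 2-fold in each pair. Most of the marker list thus had the direction of the cartilage collagens, and its part in the result was not tested.

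Promoter sequence was at hand for 35 of the 44 genes, in 38 windows of 250 bases upstream of an annotated start (RefSeq, GRCm38.p6). Windows of 5 genes, picked from a larger number that hold no annotated exon, are shown to set the DNA beside the differences in level. They are 3 cartilage genes far lower in GFP, the fibrillar gene Col3a1, and Col6a5, which was higher in GFP. Col3a1 differed by 1.96-fold between GFP and NEG. Each window shown reads 5′ to 3′ on the strand of the gene and ends at the base before the start. Capitals mark matches on either strand to the 7 motifs searched, of which none overlap in these windows: TATAAA for the TATA box, CCAAT for the CCAAT box, GGGCGG for the GC box, ACAAAG and also ACAATG for factors of the SOX family, TGTGGT for RUNX factors and GGAATG for TEAD factors. A match is a description and not a binding site.
Col10a1 (chr10:34389731-34389980, plus strand): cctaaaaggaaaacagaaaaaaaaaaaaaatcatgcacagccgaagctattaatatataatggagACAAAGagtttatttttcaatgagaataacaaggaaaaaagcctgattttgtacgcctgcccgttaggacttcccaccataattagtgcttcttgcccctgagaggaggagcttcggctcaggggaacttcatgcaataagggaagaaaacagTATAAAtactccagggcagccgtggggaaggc
Col11a1 (chr3:114030290-114030539, plus strand): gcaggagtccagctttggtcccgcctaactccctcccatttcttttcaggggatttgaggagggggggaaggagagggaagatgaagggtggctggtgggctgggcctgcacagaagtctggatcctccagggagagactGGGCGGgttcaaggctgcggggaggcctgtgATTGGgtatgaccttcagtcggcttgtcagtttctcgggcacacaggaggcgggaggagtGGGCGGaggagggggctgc
Col11a2 (chr17:34038888-34039137, plus strand): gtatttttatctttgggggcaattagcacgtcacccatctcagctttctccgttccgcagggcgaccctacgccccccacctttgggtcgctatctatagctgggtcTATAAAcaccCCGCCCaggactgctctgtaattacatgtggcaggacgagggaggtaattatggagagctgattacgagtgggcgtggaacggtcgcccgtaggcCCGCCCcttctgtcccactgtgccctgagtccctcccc
Col3a1 (chr1:45311288-45311537, plus strand): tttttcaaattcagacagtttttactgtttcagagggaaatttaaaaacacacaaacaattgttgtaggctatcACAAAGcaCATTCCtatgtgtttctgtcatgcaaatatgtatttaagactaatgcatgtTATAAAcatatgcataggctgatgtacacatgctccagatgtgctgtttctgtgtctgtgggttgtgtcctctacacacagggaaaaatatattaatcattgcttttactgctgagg
Col6a5 (chr9:105960644-105960893, minus strand): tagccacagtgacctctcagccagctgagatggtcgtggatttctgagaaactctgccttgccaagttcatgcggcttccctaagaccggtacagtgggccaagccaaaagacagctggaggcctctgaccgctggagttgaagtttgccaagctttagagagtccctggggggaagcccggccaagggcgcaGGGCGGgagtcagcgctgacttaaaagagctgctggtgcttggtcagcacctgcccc
The Col10a1 window held TATAAA 32 bases upstream of the start and ACAAAG at 185 bases. In Col11a2, TATAAA lay at 143 bases with GGGCGG on the opposite strand at 133 and 38 bases. Col11a1 held no TATAAA but GGGCGG at 110 and 19 bases and CCAAT on the opposite strand at 79 bases. The Col3a1 window held TATAAA at 117, ACAAAG at 176 and, on the opposite strand, GGAATG at 168 bases. Col6a5 held only GGGCGG, at 57 bases. Among the windows not shown, that of the cartilage gene Col9a1 without an exon (chr1:24177360-24177609, plus strand) held none of the motifs. TATAAA was in 5 of the 38 collagen windows (13.2%), beside 12.4% of 32851 windows of the same length. GGGCGG was in 22 collagen windows (57.9%) beside 32.7% of all, and CCAAT in 13 (34.2%) beside 33.9%. ACAAAG was in 4 (10.5%, all windows 16.5%), ACAATG in 1 (2.63%, all 10.7%), TGTGGT in 3 (7.89%, all 14.1%) and GGAATG in 4 (10.5%, all 12.6%). The median GC content of the collagen windows was 59%, beside 52.4% over all windows. The shown windows spanned 35.2% in Col3a1 to 62.4% in Col11a1.

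GFP was lower than MHC for 7 of the 8 fibrillar genes (all genes: 16.4%), with a median log2 ratio of -2.35. Against NEG, 6 were lower in GFP (all genes: 15%). MHC and NEG had nearly the same values for the genes of type I collagen, the main collagen of bone and tendon. Col1a1 (chr11:94936224-94953042, plus strand) had values of 2676319 in NEG, 2537347 in MHC and 397562 in GFP, and Col1a2 (chr6:4504814-4541543, plus strand) had 2054566 in NEG, 2029213 in MHC and 553571 in GFP. Against NEG, Col1a1 was 6.73-fold (6.71 to 6.75) lower in GFP and Col1a2 3.71-fold (3.70 to 3.72) lower. Col3a1, the fibrillar collagen of vessels and soft tissue, had values of 375363 in NEG, 454576 in MHC and 191163 in GFP. It had the smallest reduction of the fibrillar genes that were lower, 2.38-fold (2.37 to 2.39) against MHC, and its 1.96-fold (1.95 to 1.97) reduction against NEG was just inside the 2-fold limit.

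The type V chains, which start and limit the width of type I fibrils, had 2 members that were lowest in GFP and highest in NEG. Col5a1 had values of 192685 in NEG, 93507 in MHC and 21654 in GFP, and was 2.06-fold (2.04 to 2.08) lower in MHC than in NEG. Col5a2 had 144937 in NEG, 103430 in MHC and 17224 in GFP, a difference between MHC and NEG of 1.40-fold (1.39 to 1.41). The remaining type V chain, Col5a3, was the only fibrillar gene that was higher in GFP than in MHC. Its values were 413 in NEG, 224 in MHC and 601 in GFP, 2.68-fold (2.3 to 3.14) higher than in MHC and 1.45-fold (1.28 to 1.66) that in NEG. Col24a1 and Col27a1, minor fibrillar genes known from bone and cartilage, were the fibrillar genes furthest below NEG in GFP. Col24a1 had values of 3182 in NEG, 948 in MHC and 64.9 in GFP, which is 14.6-fold (11.5 to 18.9) below its MHC value in GFP and 49.0-fold (38.7 to 63.0) lower than in NEG. Col27a1 had 9684 in NEG, 3225 in MHC and 513 in GFP and was 18.9-fold (17.3 to 20.6) lower in GFP than in NEG. The bone matrix gene Ibsp, from the list of osteoblast and osteocyte markers, had values of 608631 in NEG, 293616 in MHC and 2413 in GFP. The part of bone-type cells in the type I values was not tested.

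The basement membrane genes split between chains. Against MHC, 7 of 9 were lower in GFP (all genes: 16.4%) and none was higher (all genes: 15.6%), with a median log2 ratio of -1.72. The genes within 2-fold were Col4a5 and Col4a6. Col4a1 and Col4a2 encode the type IV chains found in nearly every basement membrane, and they were highest in MHC. Col4a1 had values of 94998 in NEG, 125998 in MHC and 38174 in GFP, 3.30-fold (3.26 to 3.34) lower in GFP than in MHC. Col4a2 had 80526 in NEG, 98072 in MHC and 31703 in GFP, 3.09-fold (3.06 to 3.13) lower. Col4a5, a chain of the specialised type IV networks of kidney and other tissues, differed from this with values of 17846 in NEG, 20660 in MHC and 25780 in GFP, and stood in GFP at 1.25-fold (1.23 to 1.27) its MHC value. Col4a6 likewise had its highest value in GFP, with 6294 in NEG, 5573 in MHC and 7872 in GFP. Of the other type IV chains, Col4a3 had 438 in NEG, 216 in MHC and 68.6 in GFP and Col4a4 had 727 in NEG, 649 in MHC and 108 in GFP, both lowest in GFP. Col4a1, Col4a2 and Col4a3 are called uncertain because an overlapping gene had at least 25% as many reads: an annotated antisense gene overlaps Col4a1, Col4a2 meets the rule only through a 22-base overlap with Col4a1, and a long non-coding RNA on the opposite strand overlaps 22.3% of Col4a3.

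Col7a1 encodes the anchoring fibrils under skin epithelium and was low in all libraries, with values of 309.5 in NEG, 410.2 in MHC and 59.4 in GFP, 6.90-fold (5.30 to 9.12) lower in GFP than in MHC. Col15a1 and Col18a1 are the related collagens at the outer face of basement membranes, and they had different orders. Col15a1 had 1720 in NEG, 666 in MHC and 104 in GFP, with the lowest value in GFP, and was 16.5-fold (13.6 to 20.2) lower in GFP than in NEG. Col18a1, from which the fragment endostatin is cut, had 2955 in NEG, 7890 in MHC and 2152 in GFP, with its peak in MHC. It was the only collagen gene higher in MHC than in NEG by the rule, 2.67-fold (2.55 to 2.79). However, Slc19a1 on the opposite strand overlaps it by 8825 bases and had 1844 reads in NEG, 4082 in MHC and 1533 in GFP, beside 2616, 7789 and 2354 for Col18a1. It is therefore uncertain, and without genes overlapped in this way no collagen gene was higher in MHC than in NEG.

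Within type VI collagen, which forms beaded filaments around cells, the common chains had lower values in GFP and the other chains were higher. Col6a1 had values of 82883 in NEG, 73992 in MHC and 32893 in GFP, and Col6a2 had 66716 in NEG, 43975 in MHC and 23900 in GFP. Col6a1 was 2.25-fold (2.22 to 2.28) lower in GFP than in MHC, whereas Col6a2, at 1.84-fold (1.81 to 1.87), stayed within 2-fold. Col6a3, the chain that joins these in most tissues, had 72627 in NEG, 43751 in MHC and 10935 in GFP, and was 4.00-fold (3.92 to 4.08) lower than in MHC and 6.64-fold (6.51 to 6.77) lower than in NEG. Col6a4, Col6a5 and Col6a6 encode chains similar to that of Col6a3 and lie side by side on chromosome 9, at chr9:105989454-106096783, chr9:105858668-105960643 and chr9:105689417-105828085 in that order, all on the minus strand. Col6a5 had values of 2895 in NEG, 4694 in MHC and 14481 in GFP, so it was 3.09-fold (2.99 to 3.19) higher in GFP than in MHC and 5.001-fold (4.80 to 5.22) higher than in NEG. Col6a6 had 5414 in NEG, 4515 in MHC and 24451 in GFP, higher in GFP by 5.42-fold (5.25 to 5.59) and 4.52-fold (4.38 to 4.66). Col6a4 was low throughout, at 19.2 in NEG, 27.3 in MHC and 126 in GFP, and its ratios of 4.61-fold (3.04 to 7.25) and 6.57-fold (3.96 to 11.6) rest on 27 reads in MHC and 17 in NEG. The mesothelial marker Upk3b, whose list was higher in GFP as Col6a4, Col6a5 and Col6a6 were, had values of 1368 in NEG, 995 in MHC and 54258 in GFP, and the part of such cells in the type VI values was not tested. Between MHC and NEG, 0 of the 8 genes of the class were lower and 0 higher, where the shares over all genes (5.21% and 5.35%) also give less than 1 gene in 8.

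The type VIII chains form open networks in vessel walls and the cornea. Col8a1 had values of 3026 in NEG, 3914 in MHC and 1945 in GFP, and Col8a2 had 7974 in NEG, 7088 in MHC and 954 in GFP. Col8a2 was 7.43-fold (6.96 to 7.93) lower in GFP than in MHC, while Col8a1 stood at 2.01-fold (1.91 to 2.12), and this call was lost when the reads were scaled to the library total or to the reads outside collagen genes.

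In the FACIT group, GFP was lower than MHC for 4 of 6 genes (all genes: 16.4%) and lower than NEG for 4 (all genes: 15%). It was higher than each for 1, which is near the shares over all genes (15.6% and 14.1%). That gene was Col14a1 (chr15:55307750-55520803, plus strand), whose product binds type I fibrils in soft tissue and tendon. Its values of 1794 in NEG, 874 in MHC and 17262 in GFP made it the collagen gene with the largest excess in GFP, 19.7-fold (18.4 to 21.2) over MHC and 9.62-fold (9.14 to 10.1) over NEG. Col12a1, the closest relative of Col14a1, had 24058 in NEG, 21043 in MHC and 8093 in GFP and differed in the opposite direction, 2.60-fold (2.54 to 2.67) lower in GFP than in MHC. Col22a1, a collagen of junctions between tissues such as muscle and tendon, had the largest deficit against MHC. Its values were 15616 in NEG, 6393 in MHC and 90.5 in GFP, which is 70.7-fold (57.9 to 87.1) lower than in MHC and 173-fold (142 to 212) lower than in NEG. Col16a1 had 25331 in NEG, 21184 in MHC and 2992 in GFP, 7.08-fold (6.82 to 7.35) below MHC in GFP, and Col20a1 had 1231 in NEG, 2041 in MHC and 233 in GFP, 8.76-fold (7.68 to 10.01) lower. Col19a1 did not differ by 2-fold in any pair, at 67.8 in NEG, 65.8 in MHC and 57.6 in GFP, and a small nucleolar RNA inside it had 28.2% as many reads over the 3 libraries, so it is uncertain. Its end lies 9205 bases from that of Col9a1 on chromosome 1, and the log2 ratios between GFP and MHC were -6.01 for Col9a1 and -0.19 for Col19a1.

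The transmembrane genes have products that span the cell membrane. They were lower in GFP than in MHC for 3 of 4 (all genes: 16.4%) and than in NEG for 3 of 4 (all genes: 15%). Col13a1, known from the neuromuscular junction, had 6402 in NEG, 1886 in MHC and 117 in GFP and was 16.1-fold (13.5 to 19.4) below its MHC value in GFP and 3.39-fold (3.22 to 3.58) lower in MHC than in NEG. Col25a1, a neuronal collagen, had 1160 in NEG, 536 in MHC and 57.6 in GFP, 20.1-fold (15.6 to 26.4) lower in GFP than in NEG. Col23a1 had 166 in NEG, 160.0 in MHC and 75.0 in GFP, and its call against MHC, at 2.14-fold (1.63 to 2.82), was lost when reads were scaled to the library total. Col17a1, part of the hemidesmosomes of epithelium, had 62.1 in NEG, 28.4 in MHC and 32.9 in GFP, with 28 to 55 reads per library and an interval for GFP against MHC that spans no difference. The 2 other genes were highest in GFP. Col26a1 had 280.2 in NEG, 95.2 in MHC and 1130 in GFP and was 11.9-fold (9.62 to 14.8) higher in GFP than in MHC and 4.03-fold (3.52 to 4.64) higher than in NEG. Col28a1, which carries von Willebrand factor A domains as type VI chains do, had 22.6 in NEG, 31.4 in MHC and 69.5 in GFP, and its 2.21-fold (1.44 to 3.48) excess over MHC fell under 2-fold with a pseudocount of 10.

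**Figure D3:**
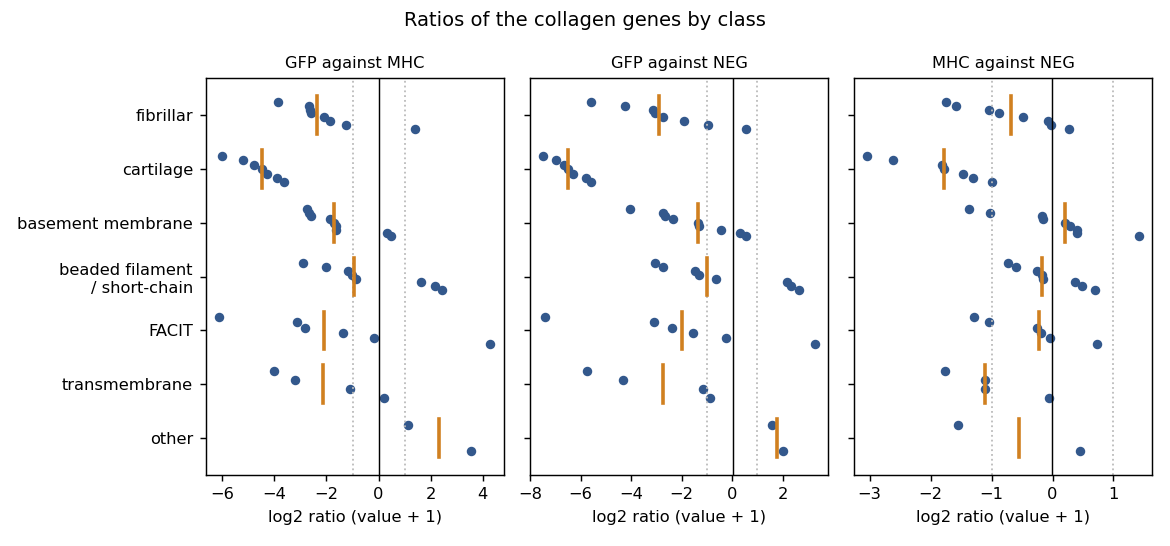
Log2 ratio of value + 1 (x axis) of each collagen gene in GFP against MHC, GFP against NEG and MHC against NEG, by class, with points for genes, orange bars for class medians and dotted lines at 2-fold. The cartilage genes lie furthest to the left in all 3 panels by median, at -4.49, -6.51 and -1.78, and the 2 genes under other lie to the right in the first 2 panels.

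The ratio between collagen chains that assemble together differed less between libraries in some types than in others. The fold between the libraries with the highest and lowest ratio does not depend on gene length. It was smallest for Col4a1 to Col4a2, at 1.09, and both of these genes are called uncertain above. The fold was 1.35 for Col6a1 to Col6a2, 1.47 for Col5a1 to Col5a2 and 1.81 for Col1a1 to Col1a2. It was larger for Col11a1 to Col11a2 at 2.28, Col6a1 to Col6a3 at 2.64, Col9a1 to Col9a3 at 2.86, Col9a1 to Col9a2 at 3.72 and Col8a1 to Col8a2 at 5.37. Type I collagen is usually built from more Col1a1 chains than Col1a2 chains. Per kilobase of union exon, the ratio of Col1a1 to Col1a2 was 1.36 (1.35 to 1.37) in GFP, 2.37 (2.36 to 2.37) in MHC and 2.47 (2.46 to 2.47) in NEG. The union of annotated exons is longer than the longest protein-coding transcript of Col1a2, at 12426 against 5348 bases, and per kilobase of each gene's longest such transcript (a scale chosen after seeing the data) the ratios were 1.17 in NEG, 1.13 in MHC and 0.648 in GFP. The order of the libraries held on both scales, but the side of 1 in GFP did not. Per kilobase of gene span the ratio in GFP was 1.57. Col8a1 to Col8a2 was 1.17 (1.08 to 1.26) per kilobase in GFP, 0.316 (0.304 to 0.329) in MHC and 0.217 (0.208 to 0.227) in NEG, which puts GFP on the other side of 1 from MHC and NEG. That crossing was not seen per kilobase of gene span, where the ratio in GFP was 0.430. For Col9a1 to Col9a2 the ratio was 0.219 (0.194 to 0.246) in GFP, 0.726 (0.712 to 0.741) in MHC and 0.812 (0.802 to 0.823) in NEG, lowest in GFP. Per kilobase of the longest transcript, GFP stood at 0.273, MHC at 0.907 and NEG at 1.01, so the order held and NEG lay on the other side of 1. Per kilobase of gene span, GFP stood at 0.076, MHC at 0.253 and NEG at 0.282.

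**Figure D4:**
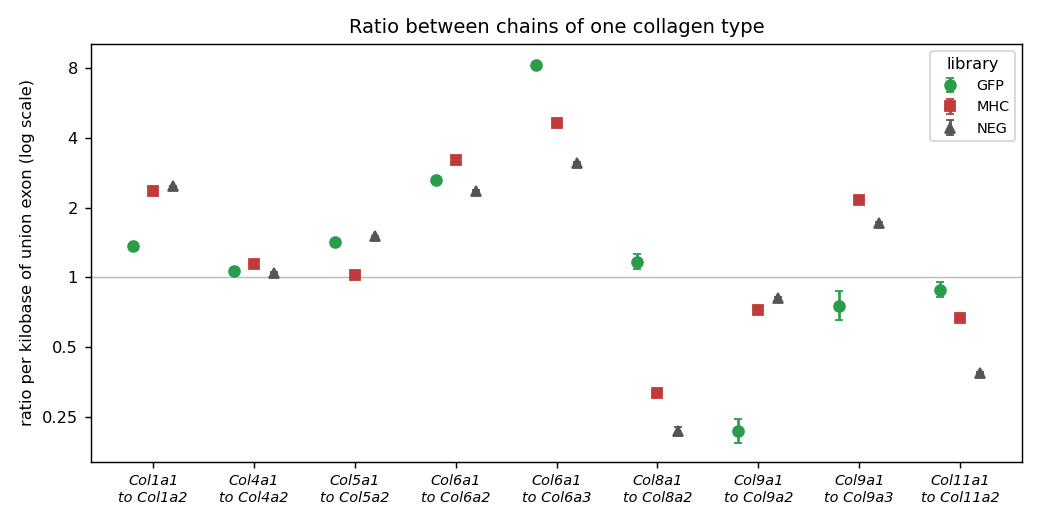
Ratio between chains of the same collagen type per kilobase of union exon (log axis) in the GFP, MHC and NEG libraries, with exact 95% counting intervals. The 3 libraries nearly coincide for Col4a1 to Col4a2, while Col8a1 to Col8a2 runs from 1.17 in GFP to 0.217 in NEG.

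Levels of different genes can be compared only per length, here as values per kilobase of union exon, and the values are inferred to include reads from introns. On this scale Col1a1 stood at 407789 in NEG, 386614 in MHC and 60576 in GFP, and Col1a2 at 165344, 163304 and 44549. Among the protein-coding genes with an annotated length, Col1a1 ranked 8 in GFP and 1 in both MHC and NEG, and Col1a2 ranked 23, 4 and 5. Per kilobase of the longest transcript their ranks in GFP were 11 and 4. The type I genes thus remained among those with the highest levels in the GFP library despite the lower values. The order below them changed between libraries. Col3a1 followed in GFP at 19475 per kilobase, then Col6a1 at 7510, Col4a1 at 5114 and Col4a2 at 4790. In NEG the gene after the type I chains was Col2a1 at 62158, followed by Col10a1 at 39501 and Col3a1 at 38240, which change places per kilobase of the longest transcript. Col2a1 ranked 14 in NEG, 176 in MHC and 2982 in GFP, and Col10a1 35, 384 and 4882. Col14a1 moved the other way, from rank 828 in GFP to 9050 in MHC and 6397 in NEG.

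Some collagen genes lie next to each other in the genome, and neighbours did not always differ alike. Col4a1 and Col4a2 are transcribed away from a shared start region on chromosome 8, with log2 ratios between GFP and MHC of -1.72 and -1.63. Col4a6 and Col4a5 start 1308 bases apart on the X chromosome, with 0.50 and 0.32, and Col4a4 and Col4a3 start 71 bases apart on chromosome 1, with -2.58 and -1.64. Each of these head-to-head pairs had members on the same side of 0. Col3a1 and Col5a2, whose ends lie 24614 bases apart on chromosome 1, had -1.25 and -2.59.

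The accessory genes below are read against the shares over all genes, which were 16.4% lower and 15.6% higher in GFP against MHC, 15% and 14.1% against NEG, and 5.21% and 5.35% for MHC against NEG. The enzymes and chaperones that prepare collagen chains in the ER differed less by median than the collagens did. Against MHC, 7 of 17 were lower and none was higher, with a median log2 ratio of -0.70, and against NEG 9 of 17 were lower, with a median of -1.25. P4ha1, a catalytic subunit of the prolyl hydroxylase that stabilises the helix, had values of 38511 in NEG, 31664 in MHC and 4926 in GFP, 6.43-fold (6.24 to 6.62) lower in GFP than in MHC. Serpinh1, the collagen-specific chaperone Hsp47, had 110964 in NEG, 65075 in MHC and 46694 in GFP, 1.39-fold (1.38 to 1.41) below MHC and 2.38-fold (2.35 to 2.40) below NEG. P4hb, which also serves other secreted proteins as a disulfide isomerase, had 73294 in NEG, 53898 in MHC and 44721 in GFP and lay within 2-fold in each pair. Colgalt2, a glycosyltransferase acting on collagen, had 1790 in NEG, 506 in MHC and 17.4 in GFP and was 29.2-fold (18.5 to 48.8) lower in GFP than in MHC. Plod2, the lysyl hydroxylase of the chain ends, was instead 1.47-fold (1.43 to 1.51) as high in GFP as in MHC, within the 2-fold limit. Between MHC and NEG, 2 of the 17 genes were lower in MHC and 15 lay within 2-fold.

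Of the genes for export and trimming of procollagen, 12 of 13 had a value of 20 or more, of which 4 were lower in GFP than in MHC, 6 lower than in NEG and none higher. Pcolce, an enhancer of the protease that removes the C-terminal propeptide, had values of 24693 in NEG, 26852 in MHC and 4047 in GFP, 6.63-fold (6.43 to 6.85) below MHC in GFP, and its relative Pcolce2 had 5227 in NEG, 907 in MHC and 50.3 in GFP, 18.03-fold (13.7 to 24.1) lower. Bmp1, that protease, was within 2-fold of MHC at 6997 in NEG, 3829 in MHC and 3287 in GFP. Adamts2 and Adamts14 remove the N-terminal propeptide, and had 19748 in NEG, 13041 in MHC and 3926 in GFP, and 1107 in NEG, 625 in MHC and 78.6 in GFP. Among the 5 cross-linking oxidases, 2 were lower in GFP than in MHC and 3 lower than in NEG. Loxl4 had 36349 in NEG, 11590 in MHC and 220.3 in GFP, a difference of 52.6-fold (46.3 to 60.0) from MHC and of 165-fold (145 to 188) from NEG, and Lox had 56613 in NEG, 65471 in MHC and 26689 in GFP. Loxl1, in contrast, was highest in GFP, at 8835 in NEG, 6544 in MHC and 11250 in GFP, but lay within 2-fold in each pair.

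**Figure D5:**
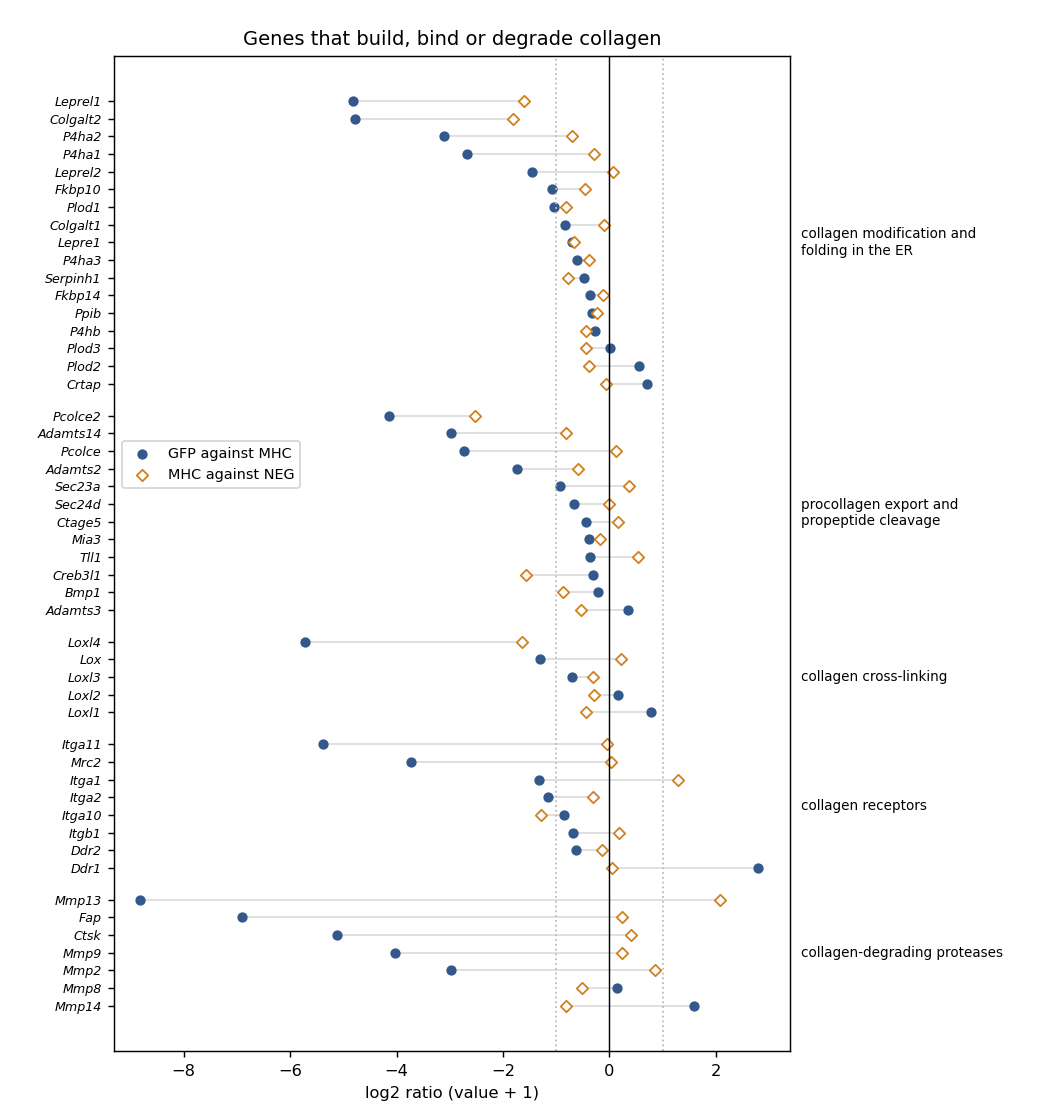
Log2 ratio of value + 1 for genes that modify, export, cross-link, bind or degrade collagen, with filled circles for GFP against MHC, open diamonds for MHC against NEG and dotted lines at 2-fold. Loxl4, Itga11, Mmp13, Fap and Ctsk lie more than 5 log2 units to the left in GFP against MHC, and Ddr1 and Mmp14 lie to the right.

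The proteins that sit on collagen fibrils differed in both directions. Of 13 with a value of 20 or more, 7 were lower and 3 were higher in GFP than in MHC. Lum, a small proteoglycan that spaces fibrils, had values of 51522 in NEG, 102856 in MHC and 3550 in GFP, 29.0-fold (28.1 to 29.9) lower in GFP than in MHC, whereas the related Dcn had 62072 in NEG, 67849 in MHC and 144191 in GFP, 2.13-fold (2.11 to 2.14) higher. Thbs1, an adhesive glycoprotein of the matrix, had 84294 in NEG, 111102 in MHC and 298059 in GFP and was 2.68-fold (2.66 to 2.70) higher in GFP. Fibronectin, Fn1, onto which cells lay collagen, was nearly level at 387798 in NEG, 455161 in MHC and 472978 in GFP. Among 8 receptor genes with enough reads, 4 were lower and 1 was higher in GFP than in MHC. Itga11, the integrin subunit for fibrillar collagen on fibroblasts and osteoblasts, had 5228 in NEG, 5073 in MHC and 121 in GFP, 42.0-fold (35.4 to 50.4) lower, and the collagen uptake receptor Mrc2 had 14405 in NEG, 14680 in MHC and 1112 in GFP, 13.2-fold (12.5 to 14.0) lower. The gene that was higher was Ddr1, a collagen-activated receptor kinase typical of epithelium, at 3373 in NEG, 3475 in MHC and 23954 in GFP and 6.89-fold (6.65 to 7.14) over MHC. Of 5 epithelial markers with a value of 20 or more, 4 were higher in GFP too, as given above, and Epcam was within 2-fold. Their part in the Ddr1 value was not tested. Ddr2, a relative of Ddr1, had 4984 in NEG, 4535 in MHC and 2941 in GFP and stayed within 2-fold.

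Of 7 collagen-degrading proteases with a value of 20 or more, 5 were lower in GFP than in MHC and 5 than in NEG, while Mmp1a was at 0 in every library. Fap, a surface protease of activated fibroblasts, had values of 1767 in NEG, 2083 in MHC and 16.5 in GFP, and the osteoclast and fibroblast protease Ctsk had 3113 in NEG, 4114 in MHC and 117 in GFP. Mmp2, the gelatinase, had 65027 in NEG, 117818 in MHC and 15017 in GFP, 7.85-fold (7.72 to 7.98) lower in GFP than in MHC. The membrane-bound collagenase Mmp14 was 3.01-fold (2.95 to 3.08) higher in GFP than in MHC, with 19491 in NEG, 11131 in MHC and 33516 in GFP. Of the 12 partners of type IV collagen in basement membranes, 2 were higher in GFP than in MHC, which is near the share over all genes (15.6%), 4 were lower (all genes: 16.4%) and 6 lay within 2-fold, with a median log2 ratio of -0.20 (all genes: 0.01). The linker Nid2 had 18777 in NEG, 19540 in MHC and 79357 in GFP, 4.06-fold (4.00 to 4.13) higher in GFP than in MHC, and its relative Nid1 had 10357 in NEG, 18753 in MHC and 1844 in GFP, 10.2-fold (9.71 to 10.7) lower. Pxdn, the peroxidase that cross-links type IV collagen, was 3.39-fold (3.26 to 3.52) higher in GFP, at 4950 in NEG, 3437 in MHC and 11643 in GFP. Lama2, the laminin chain of muscle, was 82.4-fold (65.3 to 105) lower, at 2397 in NEG, 5422 in MHC and 65.8 in GFP.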

How the data were processed

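RNA from 3 sorted populations was prepared as TruSeq libraries and sequenced as 50-base single reads, per the labels. The deposited signal is a read count that the authors divided by 1 size factor per library. FastQC 0.11.2, STAR 2.3.0e, bedtools 2.17.0, DESeq2 1.2.10 and the build mm10 are named, without roles, per the submitters' processing notes. In the deposited files, 100% of values were whole multiples (tolerance 0.01 read) of 1.12965 in NEG, 1.0129 in MHC and 0.914063 in GFP, the value of 1 read. With 1 library per population, a count test has no residual spread and was not run. The counting step was not stated by the labels, and counting over whole gene spans and both strands was inferred: of 1015 genes nested in an intron, the host had at least as many reads in 100%. Intervals are Clopper-Pearson at 95% (scipy 1.17.1). Exon and transcript lengths are from GENCODE M21, where 44 members were found and 38 had identical coordinates. A gene is called uncertain where an overlapping gene had at least 25% as many reads, whatever the length of the overlap, which applied to 6 members. All collagen genes could be named, and of each other list those with the 4 highest means or the 2 highest and 2 lowest ratios. Members and lists were chosen with earlier results of these data known. Code was tested on simulated data. Alternatives were the pseudocount, value minimum, fold, scaling, overlapping genes and length.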

Additional observations from a re-analysis of the deposited data

How the results depend on the processing

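Single-gene ratios were recomputed 660 times under another pseudocount or scaling, and 562 stayed within the counting interval of the main value. None of those past 2-fold in the main setting reversed its direction. Reversal was not counted for ratios within 2-fold. Of 60 recomputed counts of collagen genes, 55 stayed within 1.5 times. With a 4-fold rule, 4 genes were higher in GFP than in MHC, and in MHC against NEG 0 were higher and 2 lower. With a 1.5-fold rule 3 were higher in MHC than in NEG, and without overlapped genes 0 were, because Col18a1 is overlapped. Scaling to the library total moved the median log2 ratio of all genes to 0.19 for GFP against MHC and 0.19 for GFP against NEG, with 30 and 29 collagen genes lower and 7 and 6 higher. The collagen share of reads was 15.4% in NEG, 13.0% in MHC and 3.53% in GFP of protein-coding reads, 4.79%, 2.87% and 1.05% without Col1a1 and Col1a2, and 12.7%, 10.7% and 2.87% without overlapped members. Of the 10 collagen genes with the highest level per kilobase of union exon, 8 in GFP, 7 in MHC and 9 in NEG remained by gene span, and 9 in each library by the longest transcript, a scale chosen after seeing the data, as was scaling to the reads outside collagen genes. Protein sequence features by class were planned and not run. No paired analysis was possible because each population has 1 library and no test was made. With a pseudocount of 10, Col17a1 and Col4a3 were no longer 2-fold lower in MHC than in NEG, nor Col28a1 2-fold higher in GFP than in MHC. With scaling to the library total, Col23a1 was no longer 2-fold lower in GFP in either comparison. Col8a1 was no longer 2-fold lower in GFP than in MHC with that scaling or with scaling to the reads outside collagen genes, which put Col11a1 at 2-fold lower in MHC than in NEG. Ratios of genes with few reads, such as Col6a4, Col17a1 and Col28a1, are limited by depth.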
